A study of Homo sapiens with 4 samples.

Results

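Collagen genes are described here across 4 RNA-seq libraries of NT2 cells. They were taken as every gene whose symbol reads COL, a number, A and a number, and 44 of the 62696 genes in the count tables met that rule. They comprise 11 fibrillar genes, 6 basement membrane genes of type IV and 27 others. The others are 10 fibril-associated genes, 5 of type VI, 3 of the network-forming types VIII and X, 2 multiplexins, 4 transmembrane genes, COL7A1 of anchoring fibrils, and COL26A1 and COL28A1, which were left unclassified. NT2, also called NTERA-2, is a human embryonal carcinoma line, and all 4 libraries share that background and the same growth medium. One group is 1 library of cells with an empty vector, and the other is 3 libraries labelled HYDIN2 knockdown, numbered 1 to 3. The labels give neither the knockdown construct nor whether the replicates are separate cultures, so any spread below is that between these libraries and may be technical.

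Collagens are trimers of chains wound into a triple helix, and each chain has its own gene. Fibrillar chains are cut free of their end propeptides and packed into banded fibrils, type IV chains join into the sheet of the basement membrane, and the other types coat fibrils, bridge them to membranes or span the cell membrane. Embryonal carcinoma cells are known for stem cell transcription factors, and matrix genes are usually read in them as signs of the lineages they can enter.

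Before any collagen value, 3 facts about the libraries bear on the reading. HYDIN2 itself had 12 counts with empty vector and 150, 112 and 11 in replicates 1, 2 and 3. Relative to scaled library totals, the target was higher in replicates 1 and 2. The ratios to empty vector were 4.82 (counting interval 2.11 to 13.5) and 3.75 (1.62 to 10.7). In replicate 3 the ratio of 0.704 has an interval of 0.205 to 2.87, so a lower level was not resolved there. The libraries are therefore called labelled knockdown throughout. Replicates 1 and 2 lie close together and replicate 3 lies apart from them. At least 2-fold differences separated replicates 1 and 2 in 48 of 15880 genes (0.302%), and separated replicates 1 and 3 in 21.6%. The halved counts of replicates 1 and 2 still differed beyond counting noise (chi-square per degree of freedom 5.43 over 19852 genes), so they were kept as 2 samples. Library totals were between 25181737 and 62904698 counts. The column headers of the tables name a LacZ control and numbered GKAP_KIF27 sets in place of these labels.

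Of the 44 collagen genes, 12 were at least 2-fold higher in each of the 3 labelled knockdown libraries and 0 were at least 2-fold lower in each. Levels are given in CPM, counts relative to the TMM-scaled total of their library, and a gene entered the comparison when the mean of its 2 group means was at least 1 CPM. Of the collagens, 39 entered, against 15880 of all genes. At least 1 CPM with empty vector was held by 35 of the 39 and by 15241 of the 15880. Over all genes entered, 3.65% were at least 2-fold higher in all 3 and 2.72% at least 2-fold lower in all 3. The 12 higher collagens were COL2A1, COL5A1, COL5A2 and COL11A1 among the fibrillar genes, COL4A1, COL4A5 and COL4A6 of type IV, and COL7A1, COL8A1, COL12A1, COL13A1 and COL19A1 among the others. Of these, COL2A1 and COL19A1 were below 1 CPM with empty vector and entered only through their labelled knockdown levels. The empty vector library held the lowest of the 4 values in 26 of the 39 collagens, against 30.1% of all genes entered. It held the highest in 7 of 39, against 34.2%. In bulk RNA, more cells making collagen and more collagen RNA per cell cannot be told apart.

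With 1 empty vector library there is no replicate on that side, and an exact permutation over the 4 libraries cannot give a p below 0.25, so no gene carries a p of its own. The fit across all genes with edgeR's quasi-likelihood test, whose spread comes from the labelled knockdown libraries alone, called 0 of 44 collagens and 0 of 26029 genes at an adjusted p of 0.05. At an unadjusted p of 0.05 the same test had 17 collagens, all of them higher, where 6.42% of all genes were higher at that p. DESeq2 called 5 collagens at its adjusted p of 0.05, namely COL4A6, COL5A1, COL5A2, COL11A1 and COL12A1, against 1.72% of all genes, and voom in limma called 0. Without replicate 3, where the spread is that between replicates 1 and 2, edgeR called 30 collagens, 25 of them higher, and 44.7% of all genes.

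The median over the 39 entered collagens of the mean log2 difference, labelled knockdown minus empty vector, was 0.88. The median over all genes entered was -0.02. By class, that median was 1.30 for type IV, 0.77 for the fibrillar genes and 0.75 for the other collagens. The order of the classes was the same in each library. The type IV medians were 1.42, 1.30 and 1.47 in replicates 1, 2 and 3, the fibrillar ones 1.06, 0.94 and 0.99, and the others 0.70, 0.59 and 0.43. Whether the classes differ was not tested.

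**Figure D1:**
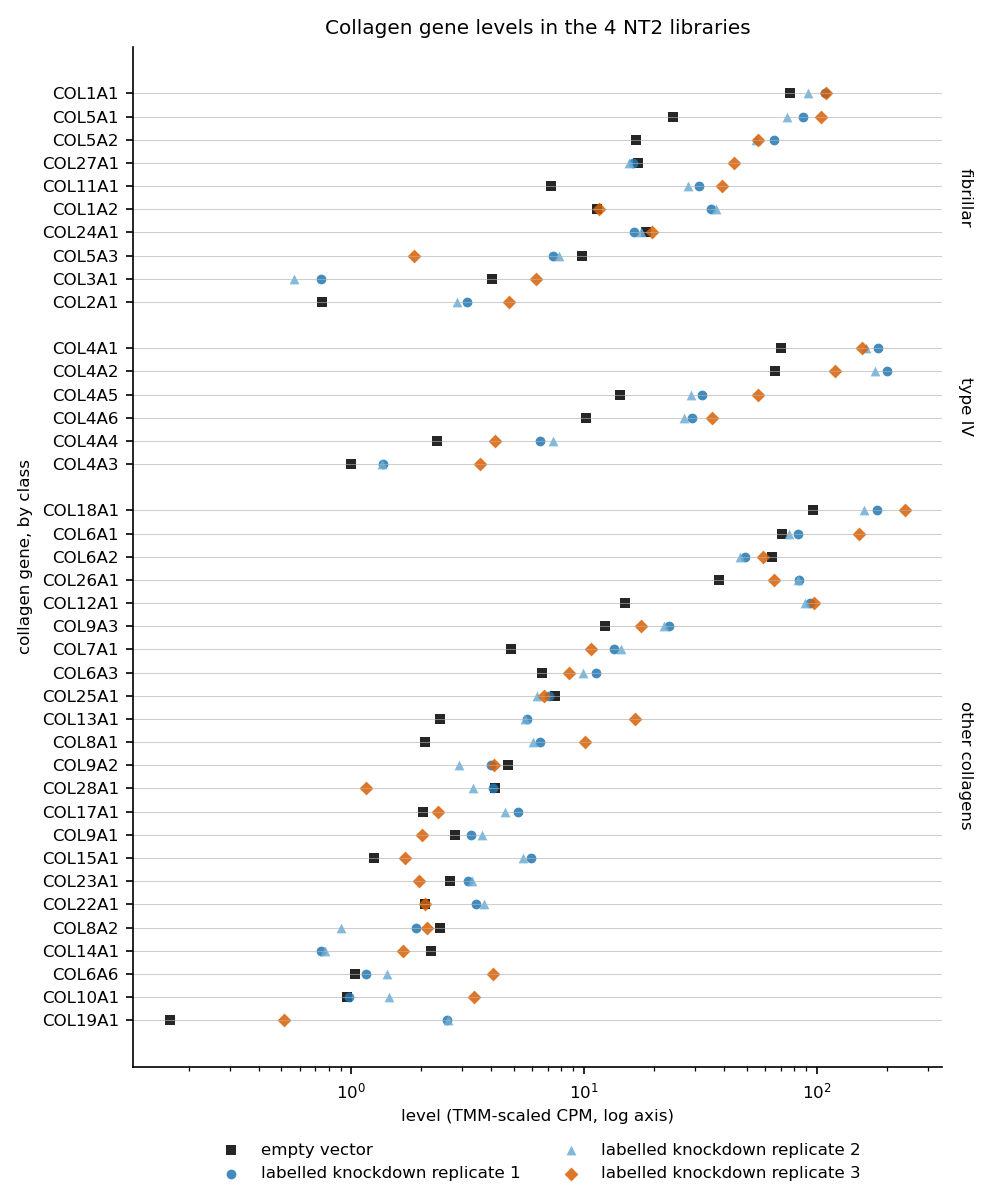
Levels of the 39 collagen genes that entered, in TMM-scaled CPM on a log axis, with 1 row per gene grouped by class and 1 symbol per library. In all 6 type IV genes the empty vector library (black squares) lies to the left of the other three, while COL9A1, COL22A1 and COL23A1 are among those in which it lies within the range of the others.

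The fibrillar collagens that entered split into 4 genes that were at least 2-fold higher in every labelled knockdown library and 6 that were not. The 4 are COL5A1 and COL5A2 of type V and COL11A1 of type XI, collagens that nucleate fibrils and hold down their diameter, and COL2A1, the single chain of type II, the collagen of cartilage. COL5A1 stood at 24.1 CPM with empty vector and at 87.3, 74.5 and 104 CPM in replicates 1, 2 and 3. The 3 values lie well clear of the empty vector library, with ratios to it of 3.62 (95% counting interval 3.20 to 4.09), 3.09 (2.73 to 3.50) and 4.33 (3.81 to 4.91). On the log2 scale the mean difference was 1.86 ± 0.24 (SD, n = 3).

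Its partner chain COL5A2 stood at 16.8 CPM against 65.4, 55.0 and 56.2 CPM, a mean log2 difference of 1.80 ± 0.14 (SD, n = 3). COL11A1, the chain that replaces the type V chains in cartilage fibrils, stood at 7.21 CPM against 31.3, 28 and 39.4 CPM. Its mean log2 difference of 2.17 ± 0.25 (SD, n = 3) was the largest among the fibrillar genes that entered. COL2A1 rested on few counts with empty vector, 18 against 196, 170 and 149, or 0.750 CPM against 3.15, 2.85 and 4.77 CPM. All 3 labelled knockdown libraries lie above the empty vector library for each of these 4 genes. COL11A2 did not enter, with 0 counts with empty vector and 16, 12 and 6 in the others, levels too low for a fold to be given.

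Type I collagen is the main fibril of skin and bone, and neither of its chains passed the rule. COL1A1, the chain present in duplicate in the type I trimer, stood at 76.5 CPM against 109, 91.8 and 110 CPM, all above the empty vector library by less than 2-fold. COL1A2, the single-copy chain, stood at 11.4 CPM against 35.1, 36.9 and 11.7 CPM. Replicates 1 and 2 were high and replicate 3 lay at the empty vector level, with a ratio of 1.02 (0.813 to 1.28). Per kb of transcript, COL1A1 exceeded COL1A2 by 5.97 times (4.98 to 7.20) with empty vector, by 2.76 times (2.58 to 2.96) and 2.21 times (2.06 to 2.38) in replicates 1 and 2, and by 8.40 times (7.21 to 9.84) in replicate 3. The first 2 replicates thus lie below the empty vector ratio and the interval of replicate 3 begins where that of the empty vector library ends.

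COL3A1, the fibril chain of vessels and soft tissue, ran the other way in the first 2 replicates. It stood at 4.04 CPM with empty vector, at 0.739 and 0.570 CPM in replicates 1 and 2, and at 6.21 CPM in replicate 3. The groups therefore overlap, and the mean log2 difference of -1.5 ± 1.84 (SD, n = 3) is smaller than its spread. COL3A1 and COL5A2 lie next to each other on chromosome 2, at 188974320 to 189012746 and 189031896 to 189225312 in GENCODE 29 on GRCh38.

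COL5A3, a type V chain of more restricted use, stood at 9.83 CPM against 7.36, 7.81 and 1.86 CPM, all below the empty vector library, and only in replicate 3 by more than 2-fold. COL24A1 and COL27A1 form a separate branch of the fibrillar family. COL24A1 was flat at 18.5 CPM against 16.5, 17.6 and 19.7 CPM. COL27A1 was 17.1 CPM against 16.3, 15.6 and 44.1 CPM, so that replicate 3 alone stood above the empty vector library.

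The 5′ flanks of COL5A1 and COL11A1 are shown because these 2 fibrillar genes were higher together in all 3 libraries. The sequences are from RefSeq on GRCh38.p14, read on the gene's strand, end before the gene's start and leave out bases that GENCODE 29 places in an exon. Capitals mark CCAAT (the CCAAT box), GGGCGG (the GC box) and TATAAA (the TATA box) on either strand, wherever they occur. The COL11A1 window lies in an intron of a longer GENCODE transcript of that gene.
COL5A1, chr9:134641553-134641773: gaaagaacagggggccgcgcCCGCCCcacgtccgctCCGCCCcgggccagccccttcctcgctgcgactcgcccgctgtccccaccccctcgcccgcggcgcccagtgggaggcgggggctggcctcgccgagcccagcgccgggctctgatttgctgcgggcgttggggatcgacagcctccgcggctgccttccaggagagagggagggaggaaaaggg
COL11A1, chr1:103108523-103108772: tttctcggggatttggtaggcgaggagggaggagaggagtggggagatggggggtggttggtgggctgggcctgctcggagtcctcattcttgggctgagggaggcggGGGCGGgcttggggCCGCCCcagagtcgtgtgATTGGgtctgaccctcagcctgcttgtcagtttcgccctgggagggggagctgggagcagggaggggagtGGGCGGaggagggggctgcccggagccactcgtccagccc
The COL5A1 window is 221 bases with 75.6% G and C and holds 2 GC boxes. The COL11A1 window is 250 bases with 68.8% G and C and holds 3 GC boxes and 1 CCAAT box. Of 35116 RefSeq promoters, 41.3% hold a GC box in the 221 bases before the start. In the 250 bases before it, 42.6% hold a GC box, 32.0% a CCAAT box and 10.7% a TATA box. These shares are for bases directly before the start, where a window cut at an exon need not end. A match describes the letters only.

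Type IV was the only one of the 3 compared classes in which the empty vector library was lowest for every gene, 6 of 6, against 6 of 10 fibrillar genes and 14 of 23 others. Within the others it was also lowest for both multiplexins, COL15A1 and COL18A1, and for COL7A1. COL4A1 and COL4A2 make the common basement membrane network found in nearly all tissues. COL4A1 stood at 70.4 CPM against 184, 163 and 157 CPM, a mean log2 difference of 1.25 ± 0.12 (SD, n = 3). COL4A2 stood at 66.4 CPM against 200, 178 and 120 CPM, and missed the 2-fold rule only through replicate 3, at a log2 difference of 0.85. For both chains all 3 labelled knockdown libraries lie above the empty vector library.

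COL4A5 and COL4A6, which pair in the basement membranes of smooth muscle and some epithelia, were both higher throughout. COL4A5 stood at 14.3 CPM against 32.1, 29 and 55.7 CPM. It sat just past the threshold in replicate 2, at a log2 difference of 1.01, and was no longer counted with RLE or upper-quartile scaling, with length and GC trends removed, or without replicate 1 or replicate 3. COL4A6 stood at 10.2 CPM against 29.2, 26.9 and 35.4 CPM, a mean log2 difference of 1.57 ± 0.20 (SD, n = 3). COL4A3 and COL4A4, the chains of the mature kidney filter, were scarce. COL4A3 had 1.00 CPM against 1.37, 1.36 and 3.59 CPM, high in replicate 3 alone, and COL4A4 had 2.33 CPM against 6.50, 7.34 and 4.13 CPM, high in replicates 1 and 2.

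The 6 genes lie as 3 pairs that are read away from each other. Between the RefSeq starts are 126 bases for COL4A1 and COL4A2 on chromosome 13, 418 for COL4A4 and COL4A3 on chromosome 2 and 379 for COL4A6 and COL4A5 on the X chromosome. The sequences are shown because the members of each pair can be read beside each other, on the same conventions as above. For COL4A1 and COL4A2 only the 30 bases around the CCAAT box are shown, since GENCODE 29 places this stretch in the first exons of one gene or the other.
COL4A1 and COL4A2, chr13:110307167-110307196, strand of COL4A2: gggccgagctccCCAATttgttggcgctgc
COL4A3, chr2:227164454-227164564: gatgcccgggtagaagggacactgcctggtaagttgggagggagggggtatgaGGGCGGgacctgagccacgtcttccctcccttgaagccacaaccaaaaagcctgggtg
COL4A5, chrX:108439588-108439837: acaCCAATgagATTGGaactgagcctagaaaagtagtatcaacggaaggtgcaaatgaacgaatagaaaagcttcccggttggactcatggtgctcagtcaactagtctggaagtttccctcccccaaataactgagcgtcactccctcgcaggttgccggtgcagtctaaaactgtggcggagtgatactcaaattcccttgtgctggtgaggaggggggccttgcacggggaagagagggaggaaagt
The 126 bases between COL4A1 and COL4A2 hold 80.2% G and C, 1 CCAAT box and 1 GC box. In windows of that length, 21.1% of RefSeq promoters hold a CCAAT box and 34.6% a GC box. The COL4A3 window is the 111 bases that GENCODE 29 leaves between COL4A4 and COL4A3, and holds 1 GC box. It ends short of the RefSeq start of COL4A3. Of RefSeq promoters, 32.9% hold a GC box in the 111 bases directly before the start. The COL4A5 window, at 51.2% G and C, holds 2 CCAAT boxes and no GC box.

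Partner chains across these flanks kept different balances. Per kb of transcript, the COL4A1 to COL4A2 ratio was 1.04 (0.946 to 1.15) with empty vector, 0.902 (0.870 to 0.936) and 0.898 (0.864 to 0.934) in replicates 1 and 2, and 1.28 (1.21 to 1.36) in replicate 3. The 4 libraries thus stay near equal amounts of the 2 chains. The COL4A5 to COL4A6 ratio was 1.46 (1.16 to 1.87), 1.14 (1.04 to 1.25), 1.12 (1.02 to 1.24) and 1.64 (1.47 to 1.83), and the empty vector interval overlaps the interval of each of the others. The COL4A4 to COL4A3 ratio was 1.89 (0.929 to 4.07), 3.85 (2.78 to 5.56), 4.37 (3.15 to 6.36) and 0.931 (0.635 to 1.35). For that pair replicate 3 lies apart from replicates 1 and 2, and the empty vector interval spans part of both.

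Among the fibril-associated collagens, which sit on the surface of fibrils, COL12A1 showed the tightest difference. It stood at 15.0 CPM with empty vector against 93.8, 89.3 and 97.4 CPM, ratios of 6.27 (5.38 to 7.31), 5.97 (5.12 to 6.96) and 6.52 (5.56 to 7.63). On the log2 scale the mean difference was 2.64 ± 0.06 (SD, n = 3), and COL12A1 was the single collagen that edgeR called without replicate 2. With the length and GC trends removed, the mean difference of COL12A1, whose longest transcript is 11723 nt, was 1.93 ± 0.09 (SD, n = 3). Its flank, shown for the tight difference and that edgeR call, follows the same conventions.
COL12A1, chr6:75206054-75206303: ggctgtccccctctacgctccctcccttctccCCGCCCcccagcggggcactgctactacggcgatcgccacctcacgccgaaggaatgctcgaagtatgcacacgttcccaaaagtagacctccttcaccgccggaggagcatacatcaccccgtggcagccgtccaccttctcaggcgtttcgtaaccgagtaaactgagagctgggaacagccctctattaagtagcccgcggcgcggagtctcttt
This 250-base window holds 61.2% G and C and 1 GC box. Of the 12 higher collagens, 9 have a promoter sequence in the RefSeq table, and 6 of the 9 hold a GC box, 4 a CCAAT box and 2 a TATA box in 250 bases. Of all 32 collagens in that table, 21 hold a GC box, 11 a CCAAT box and 7 a TATA box. Over all RefSeq promoters the shares are 42.6%, 32.0% and 10.7%.

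COL19A1, a minor collagen of developing muscle and synapses, had the largest mean log2 difference of the 39, 2.89 ± 1.30 (SD, n = 3), on the fewest empty vector counts. It had 4 counts with empty vector and 161, 156 and 16 in the others, or 0.167 CPM against 2.59, 2.61 and 0.512 CPM. In replicate 3 the ratio of 3.07 has an interval of 0.613 to 29.7, so a difference was not resolved there at this depth. COL19A1 was not among the higher genes when counts were thinned to the smallest library or when replicate 1 or replicate 2 was left out. Its mean of group means was 1.04 CPM, just above the 1 CPM minimum, so it can leave the higher genes by failing that minimum. COL14A1, a relative of COL12A1, went lower in place of higher, at 2.21 CPM against 0.739, 0.771 and 1.66 CPM, past 2-fold in replicates 1 and 2 alone.

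Type IX collagen, which binds type II fibrils in cartilage, did not move as 1 unit. COL9A3 was 12.4 CPM against 23.3, 22.2 and 17.6 CPM, above the empty vector library in all 3. COL9A2 was 4.71 CPM against 3.97, 2.90 and 4.10 CPM, below it in all 3 by less than 2-fold. COL9A1 was 2.79 CPM against 3.28, 3.65 and 2.02 CPM and overlapped it, as did COL22A1, a collagen of tissue junctions, at 2.08 CPM against 3.42, 3.72 and 2.08 CPM. COL16A1, COL20A1 and COL21A1 did not enter. COL21A1 nonetheless had 0.417 CPM against 1.53, 1.24 and 1.92 CPM, all above the empty vector library, and COL16A1 reached 1.75 CPM in replicate 1 from 0.667 CPM with empty vector.

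Type VI collagen makes beaded filaments around cells and was the most abundant class per kb of transcript with empty vector. None of its 5 genes passed the rule. COL6A1 stood at 70.7 CPM against 82.9, 76.4 and 152 CPM, with replicate 3 high and the other two near the empty vector level. COL6A2 stood at 64.5 CPM against 49.3, 47.0 and 58.6 CPM, all slightly below. COL6A3 stood at 6.58 CPM against 11.3, 9.95 and 8.64 CPM, and COL6A6 at 1.04 CPM against 1.16, 1.42 and 4.07 CPM. Per kb, the ratio of COL6A1 to COL6A2, tandem neighbours on chromosome 21, was 0.894 (0.811 to 0.988) with empty vector and 1.38 (1.29 to 1.47), 1.33 (1.24 to 1.42) and 2.12 (1.96 to 2.29) in the others. All 3 intervals lie above that of the empty vector library. COL6A5 did not enter, with 2 to 24 counts per library.

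Types VIII and X form hexagonal nets under endothelium and in growth cartilage. COL8A1 stood at 2.08 CPM against 6.47, 6.05 and 10.1 CPM, higher in all 3. Its partner COL8A2 stood at 2.42 CPM against 1.90, 0.905 and 2.11 CPM, lower than the empty vector library in all 3 and past 2-fold in replicate 2 alone. Their per-kb ratio was 0.706 (0.396 to 1.25) with empty vector and 2.80 (2.09 to 3.81), 5.47 (3.63 to 8.51) and 3.93 (2.68 to 5.89) in the others, and none of these intervals meets the first. COL10A1 was 0.958 CPM against 0.980, 1.46 and 3.36 CPM, high in replicate 3 alone.

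**Figure D2:**
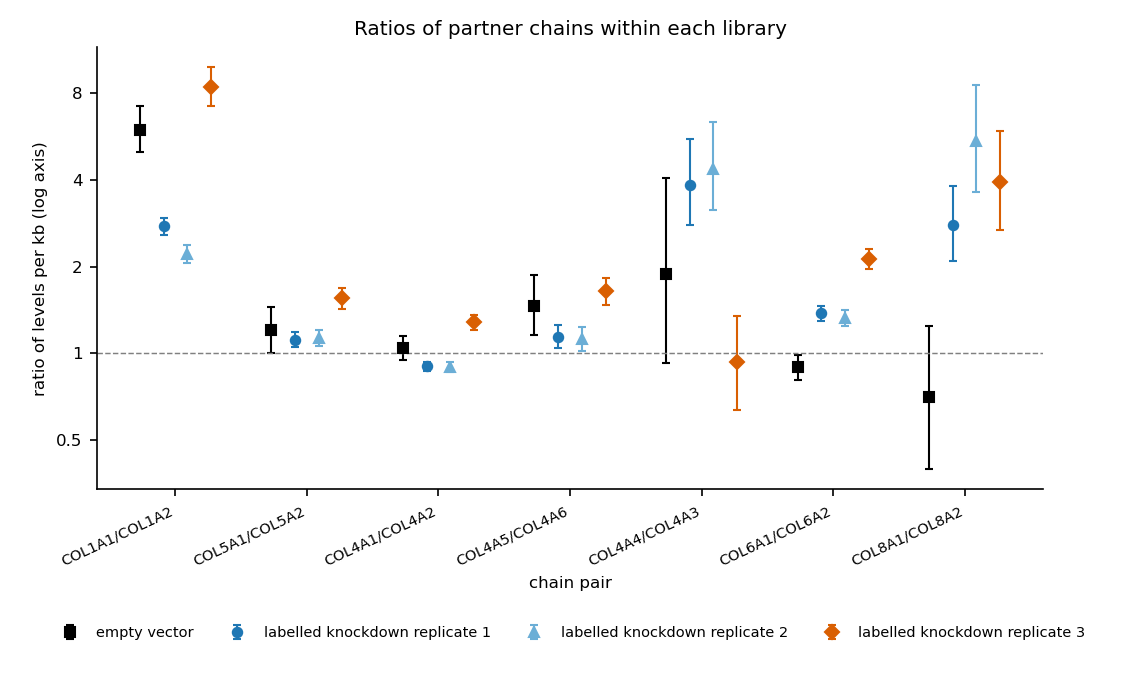
Ratio of partner chains within each library, per kb of transcript on a log2 axis, with 95% counting intervals as bars. COL8A1 to COL8A2 and COL6A1 to COL6A2 stand higher in all 3 labelled knockdown libraries than with empty vector, and COL1A1 to COL1A2 splits replicates 1 and 2 from replicate 3.

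Multiplexins carry the precursors of endostatin-like fragments in basement membranes. COL18A1, the highest collagen of the 44 in CPM with empty vector, stood at 96.2 CPM against 182, 159 and 239 CPM, all above and past 2-fold in replicate 3 alone. COL15A1 stood at 1.25 CPM against 5.93, 5.49 and 1.70 CPM, past 2-fold in replicates 1 and 2. COL7A1, which anchors basement membranes to the tissue below, was higher throughout at 4.87 CPM against 13.5, 14.4 and 10.7 CPM. Its mean log2 difference was 1.38 ± 0.22 (SD, n = 3).

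Transmembrane collagens are held in the cell surface by their own membrane segment. COL13A1, a collagen of cell adhesion sites and the neuromuscular junction, stood at 2.42 CPM against 5.67, 5.58 and 16.5 CPM, higher in all 3. COL17A1, of hemidesmosomes, was 2.04 CPM against 5.19, 4.59 and 2.37 CPM. COL23A1 was 2.67 CPM against 3.16, 3.30 and 1.95 CPM, and COL25A1 was 7.54 CPM against 7.08, 6.30 and 6.72 CPM, so neither moved far. Of the unclassified genes, COL26A1 was abundant at 38.2 CPM against 83.7, 83.4 and 65.7 CPM, and missed the rule through replicate 3, at a log2 difference of 0.78. COL28A1 was 4.17 CPM against 4.05, 3.35 and 1.15 CPM, low in replicate 3.

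**Figure D3:**
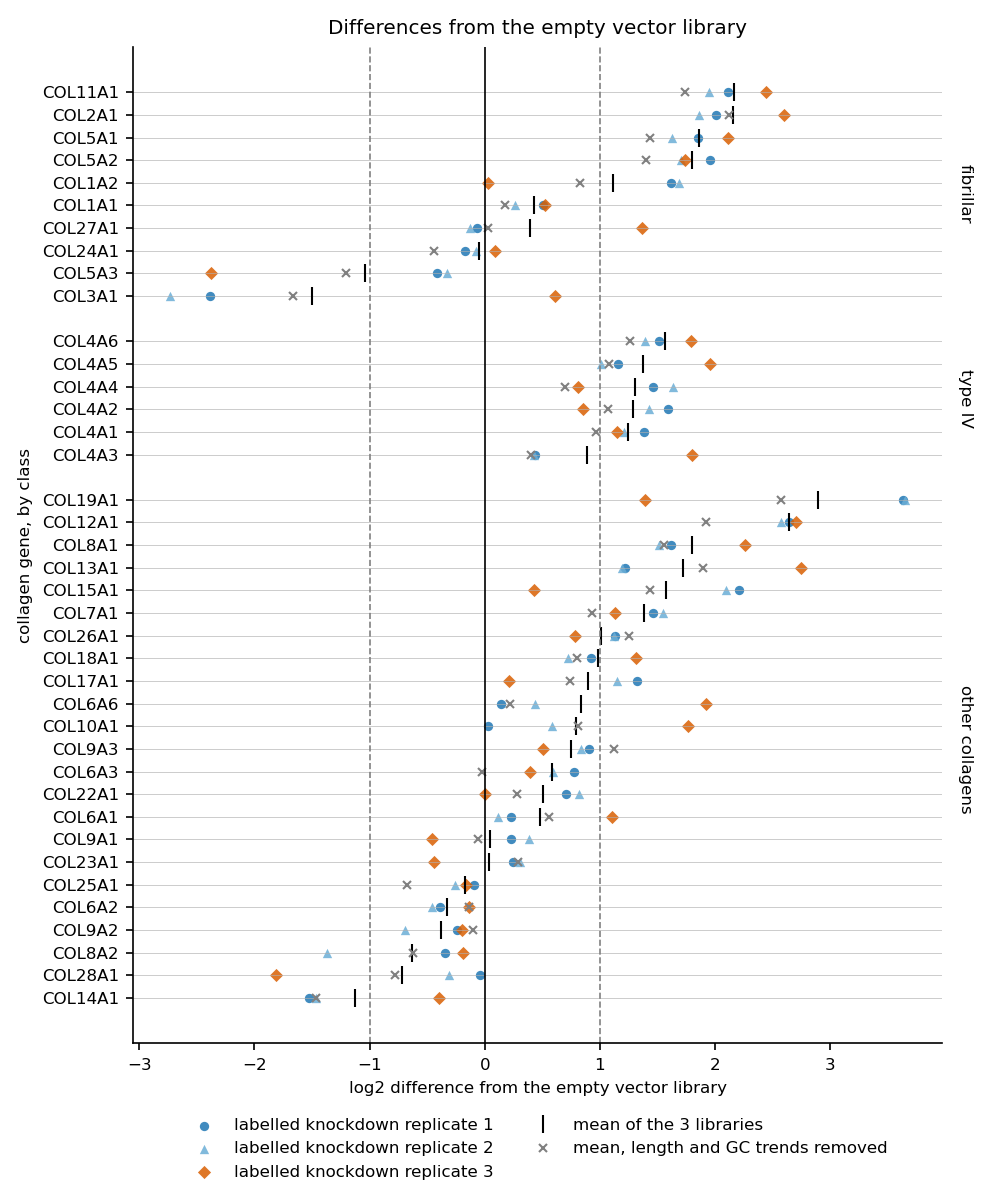
Log2 difference of each entered collagen from the empty vector library, 1 symbol per labelled knockdown library, with the mean as a black tick and the mean after removal of the length and GC trends as a grey cross. Dashed lines mark 2-fold in either direction. Symbols of all 3 libraries lie past the right-hand line for 12 genes, and past the left-hand line for 0.

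Summed over the 44 genes, collagen RNA took 699 CPM with empty vector and 1424, 1294 and 1488 CPM in replicates 1, 2 and 3. Per kb of transcript the sums were 130, 242, 222 and 254. The fibrillar share of the per-kb sum hardly varied, at 20.6%, 21.6%, 21.1% and 21.6%. The type IV share was 19.2% with empty vector against 28.3%, 27.7% and 22.3%. The type VI share was 27.7% against 14.5%, 14.7% and 21.3%. Per kb, type VI ranked first of the 9 classes with empty vector and type IV ranked first in all 3 of the others. In replicate 3 the sums lay close, at 56.8 for type IV, 54.8 for the fibrillar genes and 54.1 for type VI. Division by length leaves differences between libraries that follow length, described below, and no share was computed with them removed. COL6A2, at 18.6 CPM per kb, led the single genes with empty vector. COL4A2, at 30.7 CPM per kb, led in replicate 1, COL26A1 and COL4A2 both stood at 27.5 CPM per kb in replicate 2, and COL18A1, at 36.3 CPM per kb, led in replicate 3. COL6A1, at 35.9 CPM per kb, was next to it in replicate 3.

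**Figure D4:**
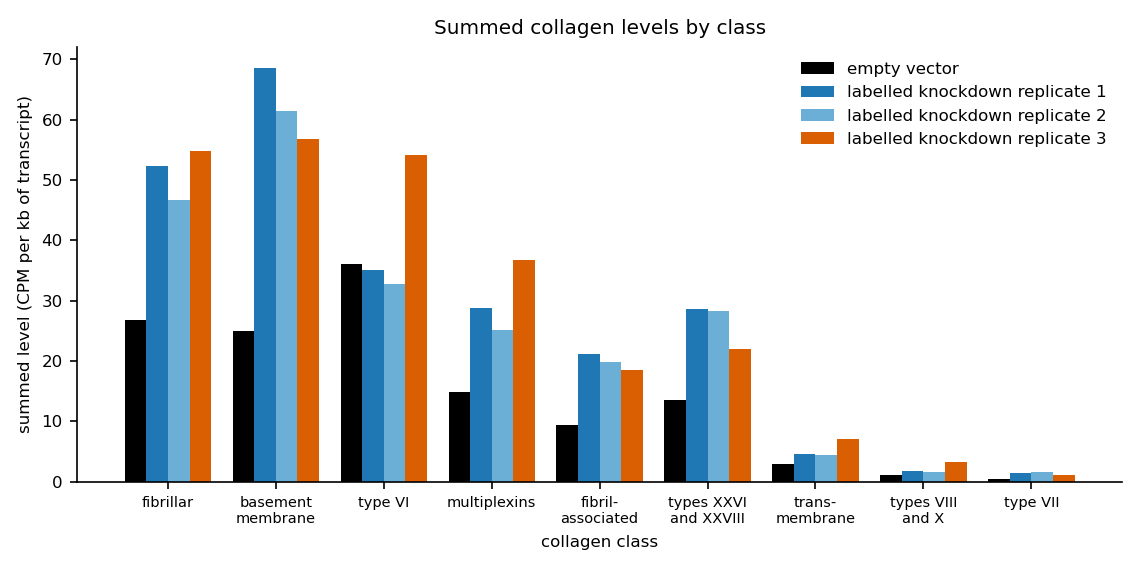
Summed level of each collagen class in CPM per kb of transcript, 1 bar per library. Type IV is the third of the classes with empty vector and the first in the others, and type VI is near its empty vector level in replicates 1 and 2.

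Replicate 3 differed from replicates 1 and 2 in 12 of the 39 collagens. It lay at least 2-fold above both in 7, COL3A1, COL4A3, COL6A6, COL10A1, COL13A1, COL14A1 and COL27A1, against 6.20% of all genes entered. It lay at least 2-fold below both in 5, COL1A2, COL5A3, COL15A1, COL19A1 and COL28A1, against 13.1%. Replicates 1 and 2 themselves differed 2-fold in 1 collagen, COL8A2. Without replicate 3, 17 of 40 entered collagens were higher and 2 lower, against 9.06% and 5.97% of all genes. COL1A2, COL4A2, COL4A4, COL15A1, COL17A1 and COL26A1 then joined the higher genes, COL4A5 left them, and COL3A1 and COL14A1 were the 2 lower ones. At a minimum of 0.1 CPM all 44 collagens entered, 14 were higher and 0 lower, against 6.04% and 3.89%, with COL11A2 and COL21A1 added.

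Long transcripts stood higher in the labelled knockdown libraries as a whole, and collagen transcripts are long. The median length of the longest annotated transcript was 6346 nt over the entered collagens and 3519 nt over the 15485 entered genes with a length. Among the 4407 genes of at least 5000 nt, 8.12% were at least 2-fold higher in all 3 libraries and the median log2 difference was 0.36. Of the 28 collagens of that length, 11 were higher, COL13A1 at 3187 nt being the twelfth. Once smooth trends on length and GC content were removed in each library, 10 collagens were higher and 0 lower, against 2.96% and 1.45% of all genes. COL4A1, COL4A5 and COL7A1 dropped below the threshold and COL26A1 passed it. The median over collagens was then 0.74, and 1.02 for type IV, 0.50 for the fibrillar genes and 0.56 for the others. Type IV still ranked first, while the fibrillar genes no longer ranked above the others.

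**Figure D5:**
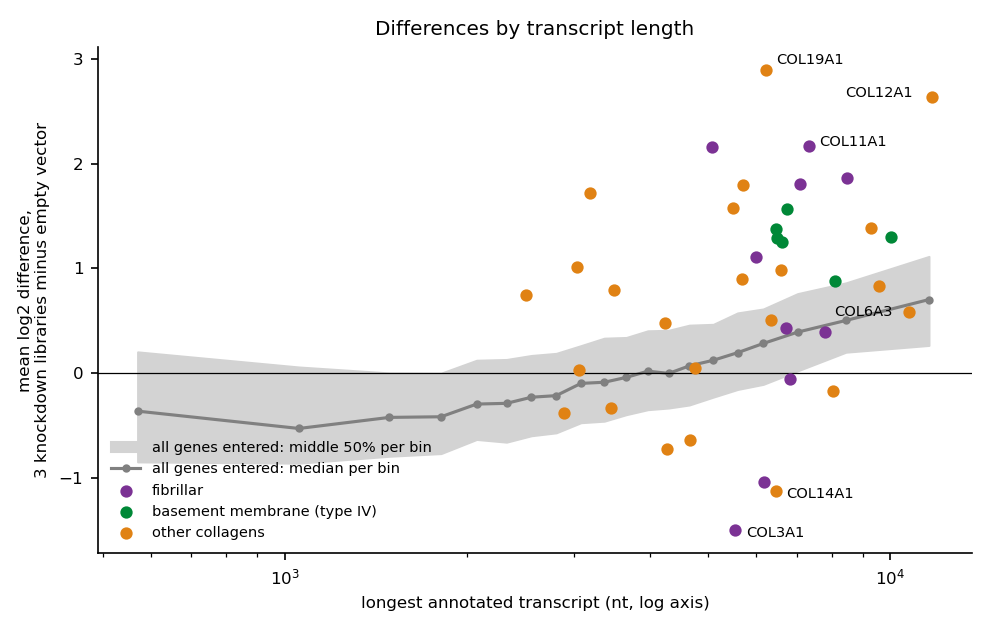
Mean log2 difference of each gene against the length of its longest annotated transcript on a log axis, with the collagens as coloured points and all entered genes as a grey line (median of each of 20 bins of equal gene number) and band (middle 50%). The grey line climbs with length, and COL12A1, COL11A1 and COL19A1 lie above the band while COL3A1 and COL14A1 lie below it.

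Genes that make, process and bind collagen were taken as a list of 47, of which 42 entered. None of the 42 was at least 2-fold higher or lower in all 3 libraries, counts near the shares over all genes of 3.65% and 2.72%. Their median log2 difference was 0.20, and it was 0.50, 0.30 and -0.11 in replicates 1, 2 and 3. SERPINH1, the chaperone of the collagen triple helix, stood at 477 CPM against 428, 432 and 413 CPM. P4HB and P4HA1, the subunits of prolyl 4-hydroxylase, stood at 159 CPM against 129, 127 and 133 CPM and at 41.4 CPM against 48.9, 48.9 and 24.2 CPM. The lysyl hydroxylases PLOD1 and PLOD2 stood at 30.8 CPM against 33.5, 31.4 and 36.6 CPM and at 47.7 CPM against 37.4, 35.0 and 45.0 CPM. The third of them, PLOD3, named here after its values were seen, stood higher at 53.1 CPM against 98.8, 103 and 80.3 CPM, short of 2-fold in each. The cross-linking enzyme LOX stood at 41.5 CPM against 78.5, 72.2 and 35.1 CPM, high in replicates 1 and 2 alone. By step, the median was -0.10 for the hydroxylases and glycosyltransferases, 0.06 for folding and export, -0.44 for propeptide processing, 0.52 for the lysyl oxidases with peroxidasin and 1.03 for the receptors. The last 2 were lower in replicate 3 than in the others. In replicates 1, 2 and 3 the medians were 0.87, 0.75 and -0.15 for the lysyl oxidases and 1.12, 1.05 and 0.50 for the receptors. They were 0.12, 0.03 and -0.08 for the hydroxylases and glycosyltransferases and 0.11, 0.12 and -0.23 for folding and export. For propeptide processing they were -0.01, -0.14 and -0.24, and 3 of its 7 entered genes had a mean above the empty vector library.

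All 7 receptor genes that entered had a mean above the empty vector library, as did 7744 of the 15880 genes entered. The widest gap was in DDR2, a receptor tyrosine kinase for fibrillar collagen, named here after its values were seen, at 7.96 CPM against 82.0, 78.2 and 10.5 CPM. It was high in replicates 1 and 2 and near the empty vector level in replicate 3. Without replicate 3, DDR2, ITGA1, ITGA11 and MRC2 passed the rule as higher. They were the only genes of the synthesis and receptor list to do so, a share near the 9.06% of all genes that were higher then.

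Markers of other cell types moved in part alongside the collagens, and their part in the collagen values was not tested. The counts that follow are over the markers that entered, beside 3.65% higher and 2.72% lower over all genes. All 8 embryonal carcinoma markers entered and 0 passed the rule. Their sum was 6193 CPM with empty vector and 6641, 6865 and 3787 CPM in the others, and LIN28A, at 2844 CPM with empty vector, made up much of it. POU5F1, L1TD1, DPPA4 and TDGF1 lay below the empty vector library in all 3, L1TD1 at log2 differences of -0.97, -0.98 and -1.06. SALL4 lay above it in all 3, and NANOG, SOX2 and LIN28A overlapped it. The list's median was -0.24.

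Of 8 fibroblast markers 5 entered and 2 were higher, PDGFRB and POSTN, and PDGFRB no longer passed with the length and GC trends removed. The list summed to 423 CPM against 560, 558 and 308 CPM, mostly THY1, at 362 CPM against 382, 394 and 210 CPM. DCN and FAP had at most 3 counts in any library. Of 5 chondrocyte markers 4 entered and 2 were higher, SOX9 at 4.42 CPM against 14.3, 12.3 and 15.3 CPM and CNMD, with a sum over the list of 16.9 CPM against 37.6, 34.6 and 33.6 CPM. MATN1 did not enter and overlapped the empty vector library. The collagens of cartilage were divided, with COL2A1 and COL11A1 higher, COL9A3 above the empty vector library short of 2-fold, COL9A2 below it, COL9A1 overlapping it and COL10A1 past 2-fold in replicate 3 alone.

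Of 5 smooth muscle markers 4 entered, DES was lower and 0 were higher (sum 53.0 CPM against 85.1, 83.0 and 41.8 CPM). Of 5 endothelial markers 4 entered and 0 passed in either direction. Their sum of 71.4 CPM against 156, 153 and 120 CPM was mostly TEK, at 62.1 CPM against 144, 142 and 115 CPM, while PECAM1 and ERG lay below the empty vector library in all 3. Of 6 primitive and parietal endoderm markers 4 entered and 0 passed (14.7 CPM against 23.5, 20.2 and 31.7 CPM), and FOXA2 had at most 2 counts. The empty vector library was lowest for all 4 that entered, against 30.1% of all genes entered. GATA4 stood at 2.37 CPM against 4.61, 4.14 and 11.3 CPM, and GATA6 at 1.79 CPM against 4.83, 3.43 and 7.43 CPM. SOX7 and PDGFRA were above by less than 2-fold. Of 5 neural progenitor markers 2 entered and 1 was higher, PAX6, with 0 counts with empty vector against 957, 784 and 92. The sum of 168 CPM against 307, 288 and 273 CPM was mostly NES, at 167 CPM against 291, 274 and 270 CPM. NES was above the empty vector library in all 3, short of 2-fold. FABP7, which did not enter, lay below it in all 3, SOX1 overlapped it, and HES5 had 0 counts in every library.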

How the data were processed

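Total RNA of NT2 cells was depleted of ribosomal RNA and sequenced in 1 empty vector library and 3 labelled knockdown libraries. The authors deposited raw counts per gene, 1 table per library, with STAR 2.7.11b, featureCounts 2.0.6, DESeq2 and GRCh38 (hg38) named in the submitters' processing notes without roles. The strand setting is not given in the sources used here, and 20 of the 44 collagen genes overlap an annotated gene on the other strand, so reads of such pairs may be mixed. Tables were assigned to samples by the series record and groups were taken from titles.

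Counts were scaled with edgeR 4.0.16 TMM factors in R 4.3.3 (0.953, 0.990, 0.969 and 1.094 for the empty vector library and replicates 1 to 3, from genes kept by filterByExpr). Log2 CPM used a prior count of 2, and a gene was higher or lower when it lay at least 1 log2 unit from the empty vector value, on the same side, in all 3 others. Every collagen with a mean of group means of at least 1 CPM was named. Others were named where a library reached 1 CPM or a partner chain was named. Of the 47 synthesis and receptor genes, SERPINH1, P4HA1, P4HB, PLOD1, PLOD2 and LOX were named whatever their values.

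Between 65.2% and 68.0% of nonzero counts were even, as happens if a read pair counts as 2, so 95% exact binomial intervals were taken on counts divided by 2, and they cover counting error only. Lengths came from the longest GENCODE 29 transcript, and all 44 collagens matched by identifier. RefSeq promoters were found for 32 of them and not for COL1A1, COL1A2, COL2A1, COL3A1, COL5A2, COL6A1, COL6A5, COL8A1, COL9A3, COL14A1, COL20A1 and COL22A1. edgeR's test, DESeq2 1.42.0 and limma 3.58.1 (voom) were fitted on the whole table with Benjamini-Hochberg adjustment. Trends were removed by lowess with a span of 0.3. Simulated data with known changes were used to test all 3 of the fold rule, edgeR's fit and the lowess step. Alternatives were other scalings, prior counts of 0.5 and 5, CPM minimums of 0.1 and 5, protein-coding genes alone, other fold rules, thinning, another class assignment and leaving out each labelled knockdown library. The collagen genes, the classes and the lists were chosen with earlier results of these data known. Averaging replicates 1 and 2 as 1 sample was added after seeing the data.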

Additional observations from a re-analysis of the deposited data

How the results depend on the processing

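The count of higher collagens stayed within 1.5 times of 12 under every alternative run, between 9 (a mean of at least 5 CPM) and 17 (2-fold in the mean, or without replicate 3), and between 11 and 17 when 1 labelled knockdown library was left out. The share of all genes that were higher shifted too. It was 3.21% at 5 CPM, 8.54% with 2-fold in the mean and 9.06% without replicate 3. The count of lower collagens was 3 with 2-fold in the mean (COL3A1, COL5A3 and COL14A1), against 6.76% of all genes, and between 0 and 2 with a library left out. Synthesis and receptor genes numbered 1 higher with total-count scaling (MRC2), 1 with the trends removed (PCOLCE), 6 at 1.5-fold, 4 with 2-fold in the mean and between 0 and 4 with a library left out. At 1.5-fold 3 were lower. Over all genes, 4.64% were higher with total-count scaling, 2.96% with the trends removed, 10% at 1.5-fold and 8.54% with 2-fold in the mean. At 1.5-fold 9.61% of all genes were lower. DESeq2 called 5 collagens where edgeR called 0. Leaving out a library gave between 0 and 30 edgeR calls, 30 of them without replicate 3, where 44.7% of all genes were called, and 1 without replicate 2, where 0.169% were.

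The collagen median was 0.98 with total-count scaling, 0.74 with the trends removed, 0.82 after thinning, 1.06 at 5 CPM, 0.95 with replicates 1 and 2 averaged and 0.81 to 0.93 with a library left out. The fibrillar median was 0.86 with total-count scaling, 0.50 with the trends removed, 1.11 at 0.1 CPM and 0.72 to 0.98 with a library left out. The type IV median was 1.39 with total-count scaling, 1.02 with the trends removed, 1.20 with replicates 1 and 2 averaged and 1.18 to 1.33 with a library left out. For the other collagens it was 0.56 with the trends removed, 0.54 after thinning, 0.55 with multiplexins and type VII counted as basement membrane and 0.65 to 0.70 with a library left out. The cause of these shifts was not tested. Total-count scaling moved the median of all genes by 0.09.

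Of 429 values of single collagens under alternatives, 410 moved by less than 1 SD of the 3 libraries and 19 by more. A sign change occurred in 10, in COL6A3, COL9A1, COL23A1, COL24A1 and COL27A1, none of which passed the rule. Among the higher genes, trend removal moved COL4A1, COL4A6, COL5A1, COL5A2, COL7A1, COL11A1 and COL12A1 down by more than their SD. It moved COL2A1, COL4A5, COL8A1, COL13A1 and COL19A1 by less than theirs. COL13A1 and COL19A1 did not pass after thinning, and COL19A1 also did not without replicate 1 or without replicate 2. No paired analysis was possible because a single empty vector library shares fewer than 2 replicate numbers with the other group. The empty vector library had 25181737 counts, and genes such as COL19A1 and COL2A1 rest on few of them.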
